A study of Mus musculus with 10 samples.

Results

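Macrophages, neutrophils and mast cells are myeloid cells that enter or settle in tissue, and 40 genes known for them were followed in mouse pancreas with and without the Hippo kinases. The genes were chosen by cell type, 25 for macrophages and monocytes, 9 for neutrophils and 6 for mast cells, and were found by gene symbol on the array. Each was represented by a transcript cluster, the set of probes that report on 1 gene, assigned to that gene alone. This gave values for 39 of the 40 genes, among 19938 genes tested in all. The neutrophil receptor gene Fpr1 was not analysed here.

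RNA from 10 pancreas samples of mice of mixed strain background was measured on Affymetrix Mouse Gene 1.0 ST arrays, 5 labelled control and 5 labelled DKO (double knockout). The genotype of the DKO samples is PDX1Cre,Mst1-/-,Mst2L/L. Mst1 (gene symbol Stk4) carries null alleles, and Mst2 (gene symbol Stk3) carries floxed alleles that are removed where Cre is made under the Pdx1 promoter, which acts in the pancreatic epithelium and its progenitors. Leukocytes come from the bone marrow and not from that epithelium. By the genotype, the myeloid cells of a DKO sample would lack Mst1 and keep an intact Mst2. The genotype of the control samples beyond that word, and the age of the animals, are not given in the labels. The labels do not state that each array is a separate animal either, so each p-value rests on variation between arrays that may be technical. Levels are log2 intensities as the authors deposited them, so a difference of 1 is a doubling. Single genes were tested with limma, and adjusted p-values are Benjamini-Hochberg values over all 19938 genes, with a threshold of 0.05.

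As background, macrophages of the pancreas live around acini, ducts and islets, depend on the receptor CSF1R and take up dying cells and debris. Neutrophils are short-lived blood cells that carry antimicrobial proteins in granules made in the bone marrow, and they enter the pancreas in pancreatitis. Mast cells sit in connective tissue, depend on the receptor KIT and store proteases that they release on activation. The Hippo kinases restrain the coactivators YAP and TAZ in epithelial cells, and MST1 is also known for roles in leukocyte adhesion and migration.

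The samples carried strong pancreas signal. Acinar genes (list mean 11.86 to 12.51 in every array) and islet genes (11.87 to 12.20) were high throughout. Of the acinar genes Cel, Cela2a and Bhlha15 did not pass and Rbpjl fell by 0.45 (adjusted p = 0.0225). Of the islet genes none passed, the hormone genes Ins2, Gcg, Sst and Iapp having adjusted p-values of 0.0971 or more. Of the duct keratins Krt7 rose by 1.22 and Krt19 by 0.41, while Cftr and Sox9 did not pass. Liver transcripts stood out in DKO replicate 1, where the mean of 14 hepatocyte genes, among them Alb, Ahsg, Cyp3a11 and Apob, was 10.64, against 6.36 to 7.17 in the other 9 arrays. Stk4 lay between 5.01 and 5.23 in all 10 arrays, under the 95th percentile of olfactory receptor genes (6.12), so it gave no check of the labels, and Stk3 was not analysed here.

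Across the 39 measured genes none passed the test, in either direction, where 2.44% of all genes did (487 genes, 2.08% higher and 0.366% lower in DKO). That split was 414 higher and 73 lower, and 321 and 125 after quantile normalization was applied again. At an unadjusted p of 0.05 by the same limma test there were 7 of 39 (6 higher, 1 lower), near the 14.8% of all genes (9.18% higher, 5.66% lower). The changes ran from -1.06 for the neutrophil granule gene Ngp to 0.41 for the receptor gene Kit, with a median of 0.10, against a median of -0.01 over all genes. Positive changes were seen in 23 of the 39, against 47.6% of all genes. Since none passed, the values that follow describe levels and their spread. The array files hold no detection call, so 1027 olfactory receptor genes, which pancreas is not known to express, served as a guide to background. Their 95th percentile was 6.12, and 6 of the 39 genes had a mean level under it: Ccr2, Aif1, Mmp8, Cxcr2, Clec4d and Ms4a2. In whole tissue, fewer cells of a type and less RNA of that gene per cell cannot be told apart.

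**Figure D1:**
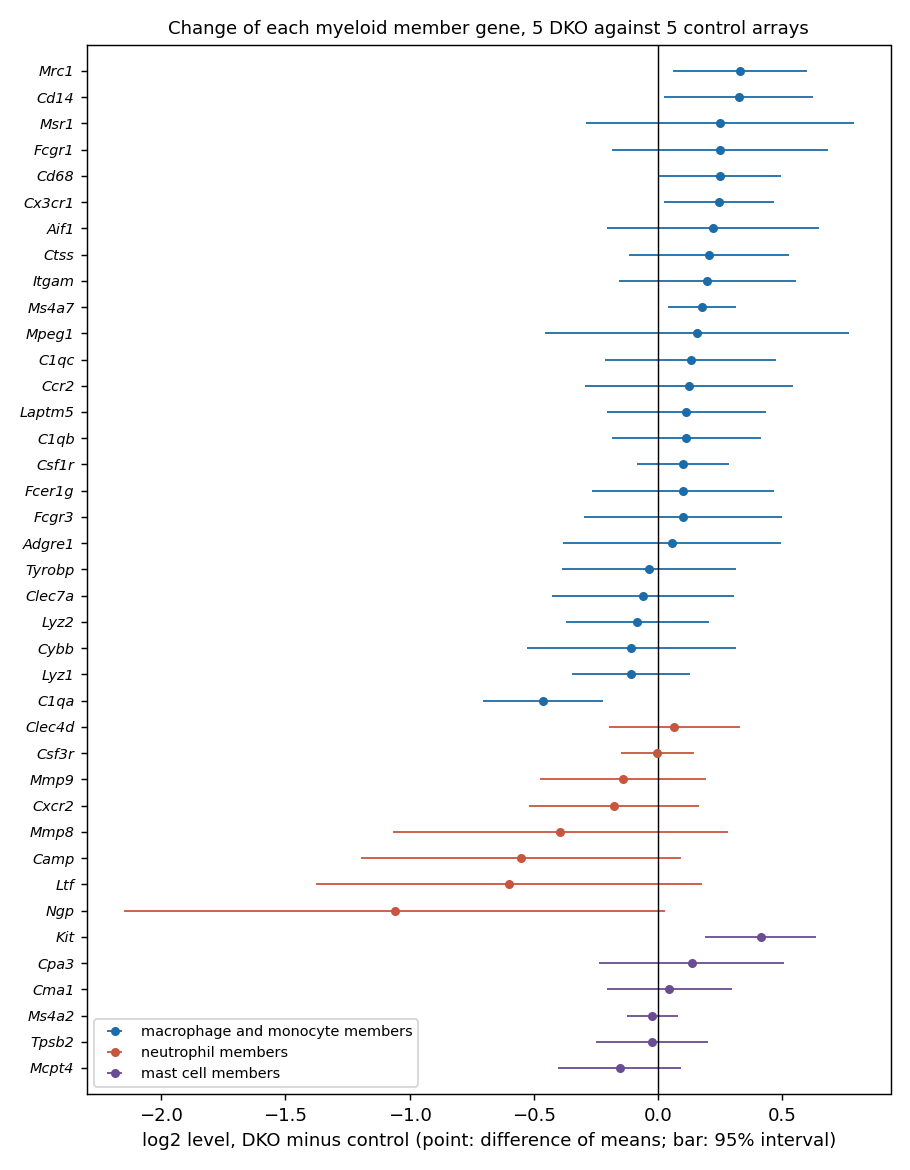
Log2 change between DKO and control for each of the 39 measured genes, as the difference of group means (points) with its 95% interval (bars), 5 arrays a group, coloured by cell type. The macrophage genes other than C1qa (-0.46) lie between -0.11 and 0.33, and the widest intervals belong to the neutrophil granule genes Ngp, Ltf and Mmp8.

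Genes of macrophages and monocytes came first. Of 25 measured, none passed, 19 were on the higher side and 6 on the lower, and the median change was 0.13 (range -0.46 to 0.33). At an unadjusted p of 0.05 by limma there were 6 (Mrc1, Cd14, Cd68, Cx3cr1 and Ms4a7 higher, C1qa lower). Of all genes 14.8% reached it (9.18% higher, 5.66% lower). Csf1r, the receptor for the growth factors CSF1 and IL-34 on which macrophages depend, measured 9.50, 9.61, 9.31, 9.19 and 9.60 in the 5 control arrays and 9.53, 9.47, 9.49, 9.64 and 9.58 in the 5 DKO arrays, in the order of the replicate numbers, as in all such lists of values here. The DKO values lay close together, 4 of them inside the control range and that of replicate 4 just above it, and the change was 0.10 (95% interval -0.08 to 0.29, adjusted p = 0.601).

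Adgre1 codes for an adhesion receptor whose protein is a standard surface marker of mouse tissue macrophages. It measured 8.33, 9.40, 8.55, 8.51 and 8.58 in control and 8.30 to 9.10 in DKO (9.10, 8.90, 8.30, 8.66 and 8.70 in order). Control replicate 2 stood above every other array, and the change of 0.06 (adjusted p = 0.913) turned to -0.041 when arrays were weighted by quality. Cd68, a glycoprotein of macrophage lysosomes, measured 8.81, 9.01, 8.61, 8.93 and 8.92 in control and 9.07, 9.43, 8.77, 9.13 and 9.13 in DKO. All DKO values but that of replicate 3 lay above every control value, and the change of 0.25 did not pass (adjusted p = 0.334). Itgam, the integrin chain CD11b of macrophages and neutrophils, differed by 0.20 (adjusted p = 0.594).

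The scavenger and lectin receptors bind modified proteins, sugars and microbial products. Mrc1, the mannose receptor, measured 9.39, 9.30, 9.05, 9.09 and 9.44 in control and 9.38, 9.99, 9.45, 9.65 and 9.44 in DKO. DKO replicate 2 was highest, and the groups overlapped between 9.38 and 9.44. The change was 0.33 ± 0.12 (SE, adjusted p = 0.238). Cd14, a coreceptor for bacterial lipopolysaccharide, measured 7.84, 7.81, 7.55, 7.21 and 7.55 in control and 7.67, 7.91, 7.75, 8.24 and 8.01 in DKO. Its 5 DKO values all exceeded the control mean of 7.59, but 2 of them lay below the highest control values, and the change of 0.32 ± 0.14 (SE) did not pass (adjusted p = 0.300). Cd14 is also made by epithelial cells and hepatocytes.

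Msr1, the class A scavenger receptor, varied more within the groups than between them. It measured 7.60, 8.40, 7.59, 7.52 and 8.01 in control and 7.86, 8.48, 7.33, 8.61 and 8.09 in DKO, with a change of 0.25 ± 0.25 (SE, adjusted p = 0.660). Clec7a, the beta-glucan receptor dectin-1, differed by -0.06 (adjusted p = 0.888).

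C1qa, C1qb and C1qc code for the 3 chains of complement C1q, which macrophages make and which recognises antibody complexes and dying cells. The chains are assembled together, and their genes are neighbours in the genome. C1qa measured 9.003, 9.43, 9.04, 9.30 and 9.36 in control and 8.58, 8.70, 8.63, 8.93 and 9.003 in DKO. Every DKO value was below every control value, but the lowest control and the highest DKO array differed by only 4e-05, so the separation is nominal. Groups did not overlap for 1 of the 39 genes, where 4.8% of all genes had such groups. The change of C1qa was -0.46 ± 0.11 (SE, 95% interval -0.70 to -0.22), a ratio of DKO to control of 0.726, and just missed the threshold (adjusted p = 0.0556).

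Neither of the other chains passed, and both had changes above 0. C1qb measured 10.28, 10.71, 10.15, 10.11 and 10.37 in control and 10.44, 10.57, 10.04, 10.70 and 10.44 in DKO, a change of 0.11 ± 0.14 (SE, adjusted p = 0.717). C1qc measured 9.58, 9.99, 9.22, 9.15 and 9.67 in control and 9.68, 9.65, 9.36, 9.91 and 9.69 in DKO, a change of 0.13 ± 0.16 (SE, adjusted p = 0.715). Both chains were on the higher side in 4 of 5 DKO arrays. Within an array, C1qa less the mean of C1qb and C1qc was -0.93, -0.92, -0.65, -0.33 and -0.65 in control and -1.48, -1.41, -1.07, -1.38 and -1.06 in DKO. This difference was taken up after the values were seen and was not tested. It did not overlap between groups, and its mean was 0.58 lower in DKO (-1.28 ± 0.20 SD against -0.70 ± 0.25 SD, n = 5 each). The change of C1qa itself, -0.46, enters this difference. No share of such differences over all genes was computed to set beside it.

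**Figure D2:**
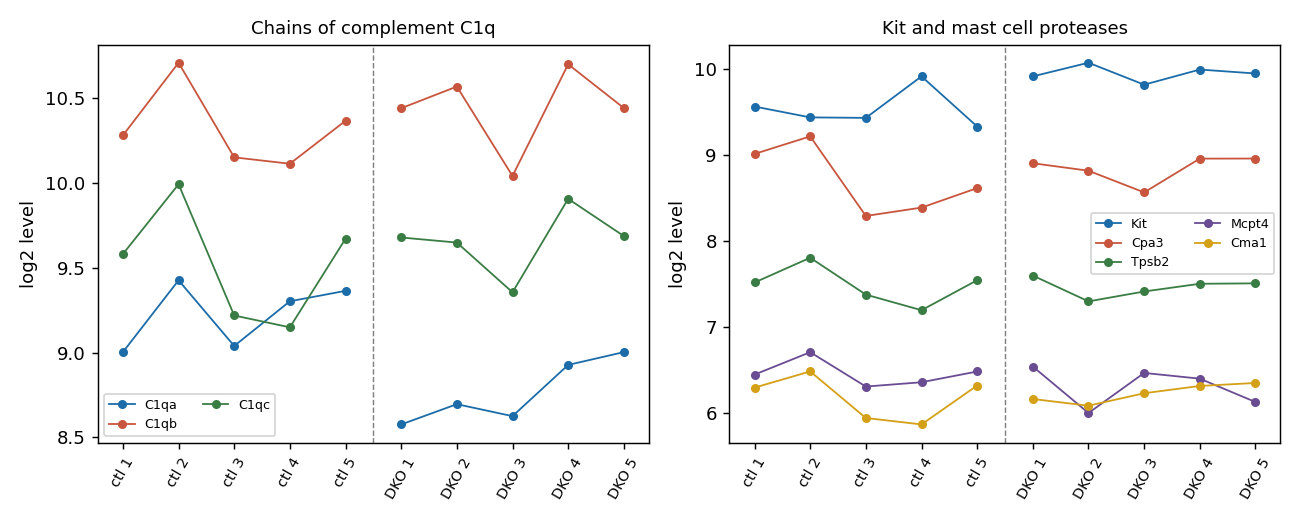
Log2 level in each array of the 3 C1q chain genes (left) and of Kit with 4 mast cell protease genes (right). Lines join the values of a gene within a group and the dashed line parts control (ctl) from DKO; C1qa lies between 9.003 and 9.43 in control and between 8.58 and 9.003 in DKO, the DKO values of C1qb and C1qc lie within or near their control range, and Kit is 9.81 or higher in every DKO array.

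Fc receptors bind antibody, and Fcer1g and Tyrobp code for adaptor proteins through which such receptors signal. None of these genes passed. The antibody receptor genes Fcgr1 and Fcgr3 differed by 0.25 and 0.10 (adjusted p = 0.583 and 0.817), Fcer1g by 0.10 (0.799) and Tyrobp by -0.04 (0.931). Tyrobp measured 8.76, 9.47, 8.99, 8.90 and 9.20 in control and 9.19, 9.20, 8.51, 9.19 and 9.05 in DKO, where 4 arrays lay inside the control range and replicate 3 lay below it. Fcgr3 belongs to a family of similar genes whose probes may not be separated in full.

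The chemokine receptors separate monocyte classes. CCR2 draws inflammatory monocytes out of the bone marrow, and CX3CR1 marks patrolling monocytes and many resident macrophages. Ccr2 measured 5.03, 5.39, 5.35, 5.66 and 5.50 in control and 5.34, 6.26, 5.21, 5.47 and 5.27 in DKO, so that only DKO replicate 2 stood over the background guide of 6.12. Cx3cr1 measured 7.41, 7.83, 7.45, 7.89 and 7.77 in control and 7.97, 8.04, 7.77, 7.92 and 7.88 in DKO. Its DKO values were tightly grouped in the upper part of the control range or above it, and the change of 0.25 ± 0.10 (SE) did not pass (adjusted p = 0.286).

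Of the 5 genes for killing and degrading proteins none passed, and 3 were on the lower side. Lyz2, the lysozyme gene of myeloid cells, differed by -0.08 (adjusted p = 0.790) and Lyz1, its close relative best known from Paneth cells, by -0.11 (adjusted p = 0.670); probes of this pair may cross-react. Lyz2 measured 10.85, 11.35, 10.93, 11.03 and 11.13 in control and 11.05, 11.16, 10.50, 11.09 and 11.07 in DKO, so that 4 DKO arrays lay inside the control range and DKO replicate 3 below it. Cybb, the NADPH oxidase subunit that makes superoxide, differed by -0.11 (0.815), and Ctss, the lysosomal protease cathepsin S, by 0.21 (0.539). Mpeg1, the pore protein perforin-2, measured 7.02, 8.02, 6.85, 7.55 and 6.83 in control and 7.71, 7.73, 6.80, 7.89 and 6.94 in DKO. Its arrays fell into a higher and a lower set in both groups alike, and its SD of 0.52 in control and 0.50 in DKO far exceeded the change of 0.16 (adjusted p = 0.813).

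Of the remaining 3 macrophage genes, Ms4a7, a membrane protein of macrophages, had the smallest spread. Control arrays lay between 6.48 and 6.64 and DKO arrays between 6.56 and 6.83, 4 of the 5 above every control array, and the change was 0.18 ± 0.06 (SE, adjusted p = 0.208). Aif1, the actin-binding protein IBA1, differed by 0.22 (0.625), and Laptm5, a lysosomal protein of leukocytes, by 0.12 (0.734).

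The spread between arrays was shared by most macrophage genes. The mean of the 25 was 8.15, 8.63, 8.11, 8.22 and 8.29 in control and 8.42, 8.58, 8.02, 8.57 and 8.32 in DKO. Control replicate 2 held the highest control value in 21 of the 25 genes, and DKO replicate 3 the lowest DKO value in 20 of them. The group means, 8.28 ± 0.21 and 8.38 ± 0.23 (SD, n = 5 each), differed by 0.10, less than the SD within either group. The median change of the macrophage genes, 0.13 with all arrays, was 0.24 without control replicate 2, 0.22 without DKO replicate 3, 0.071 without control replicate 3, 0.079 without DKO replicate 4 and 0.053 with arrays weighted by quality. Pan-leukocyte genes (20 measured, none past the test) had list means of 7.82 to 8.13 in control and 7.63 to 8.35 in DKO, lowest again in DKO replicate 3. Among them Lcp1, Itgb2, Vav1 and Fermt3, which serve the actin cytoskeleton, adhesion and signalling of leukocytes, differed by 0.39, 0.22, 0.14 and -0.14 (adjusted p = 0.334, 0.345, 0.509 and 0.473).

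**Figure D3:**
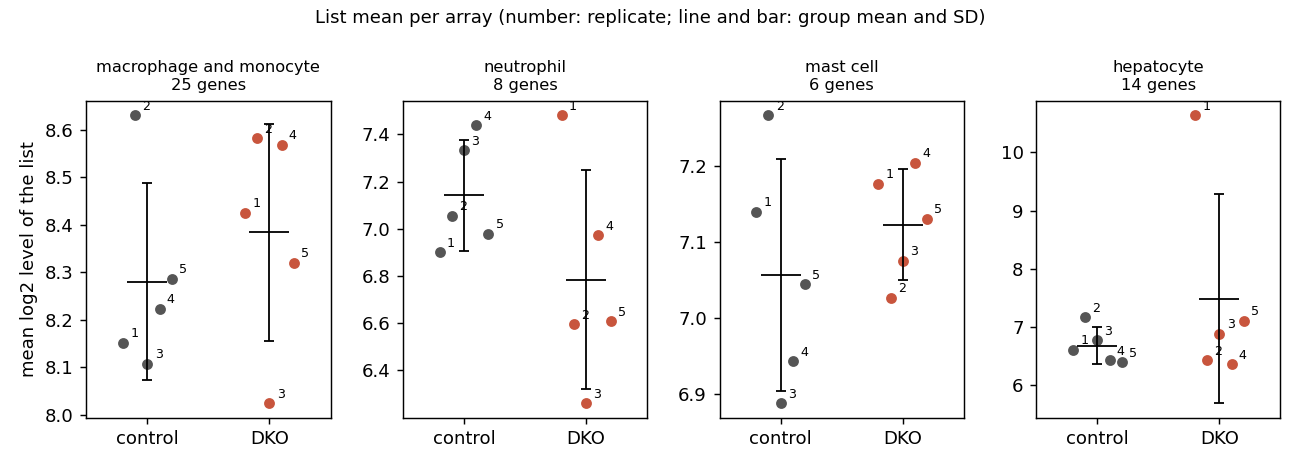
Mean log2 level per array of the measured macrophage, neutrophil and mast cell genes and of 14 hepatocyte genes, by group. Points carry the replicate number, and lines and bars show the group mean and SD over 5 arrays; control and DKO overlap in all 4 panels, DKO replicate 1 is highest for both neutrophil and hepatocyte genes, and DKO replicate 3 is lowest for macrophage and neutrophil genes.

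DKO replicate 1, with its liver transcripts, was not the highest DKO array for macrophage genes. Of 5 genes of Kupffer cells, the macrophages of the liver, none passed. Clec4f, the one most particular to them, was 6.74 in DKO replicate 1 against 6.13 to 6.52 in the other arrays, Marco 6.80 against 6.23 to 6.66, and Cd5l 6.13 against 5.51 to 5.93. Vsig4 was 7.75 there, but also 7.52 and 6.97 in DKO replicates 2 and 5, and 5.16 and 5.90 in DKO replicates 3 and 4, against 5.14 to 6.34 in the control arrays. Timd4 was 7.83 there, inside the range of the other arrays. Without DKO replicate 1 the median change of the 25 macrophage genes was 0.12, against 0.13 with it.

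Neutrophil genes divided into granule proteins and receptors. Of 8 measured, none passed and none reached an unadjusted p of 0.05 by limma, where 14.8% of all genes did. The 5 granule protein genes were all on the lower side in DKO, with a median change of -0.55. The 3 receptor genes had a median of -0.0016 (range -0.18 to 0.07). Of these receptor genes, Cxcr2 (mean level 5.27) and Clec4d (5.85) lay under the background guide of 6.12, as did the granule gene Mmp8 (5.61). The third receptor gene, Csf3r (6.64), lay not far over that guide. A change of genes near background could show little, which limits a comparison of the granule and receptor sets. The median of all 8 was -0.28, and it was -0.46 without DKO replicate 1, -0.16 without DKO replicate 3 and -0.19 without control replicate 4. As background, granule proteins are made by maturing neutrophils in the bone marrow, and their RNA falls as cells mature, whereas the receptor genes are used by mature cells. Whether the maturity of the cells had a part in these values was not tested.

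Ngp, Camp and Ltf code for neutrophilic granule protein, for the antimicrobial peptide precursor cathelicidin and for the iron-binding protein lactoferrin, cargo of the specific granules. All 3 genes lie on mouse chromosome 9. Their upstream sequences are shown because the 3 were high and low in much the same arrays. The 250 bases before each transcript start are from RefSeq on build GRCm38.p6, 5′ to 3′ on the strand of the gene, with capitals for ATTGC or its reverse complement GCAAT, a half-site of the C/EBP factors, which are known to drive granule genes.
Ngp, chr9:110419558-110419807, plus strand: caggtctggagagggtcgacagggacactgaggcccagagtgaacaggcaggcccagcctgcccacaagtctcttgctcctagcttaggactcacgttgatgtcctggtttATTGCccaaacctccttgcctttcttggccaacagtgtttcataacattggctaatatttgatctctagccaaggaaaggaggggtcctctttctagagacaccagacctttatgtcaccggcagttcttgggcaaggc
Camp, chr9:109849457-109849706, minus strand: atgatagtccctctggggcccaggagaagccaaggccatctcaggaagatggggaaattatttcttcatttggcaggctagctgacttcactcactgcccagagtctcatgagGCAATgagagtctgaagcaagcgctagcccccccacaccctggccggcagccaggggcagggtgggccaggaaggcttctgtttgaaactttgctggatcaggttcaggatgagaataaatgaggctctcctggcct
Ltf, chr9:111019042-111019291, plus strand: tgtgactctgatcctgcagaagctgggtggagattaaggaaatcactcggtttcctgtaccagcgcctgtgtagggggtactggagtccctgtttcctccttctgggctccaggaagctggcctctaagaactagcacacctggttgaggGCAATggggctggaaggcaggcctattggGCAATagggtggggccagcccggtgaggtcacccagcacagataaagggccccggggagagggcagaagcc

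The half-site occurred once upstream of Ngp and of Camp and 2 times upstream of Ltf. RefSeq upstream windows were found for 32 of the 40 genes. Counts of neutrophil, macrophage and mast cell windows here are counts of genes, a gene counting if any of its windows held the letters. The percentages count each of all 32851 windows, so counts and percentages are unlike measures. On either strand ATTGC was in 5 of 8 neutrophil windows (Ngp, Camp, Ltf, Mmp8 and Csf3r), 4 of 19 macrophage windows and 1 of 5 mast cell windows, and in 23.1% of all 32851 windows of that length. The motif GAGGAA, a core bound by the myeloid factor PU.1, was in 11 of 19 macrophage, 5 of 8 neutrophil and 1 of 5 mast cell windows, against 23.3% of all. The letters AGATAA, bound by factors of the GATA family, were in 3, 1 and 2 of them in that order (9.99% of all). The letters GGAATG, bound by TEAD factors, were in 2, 1 and 0 (12.6%). A further 6 motifs, some overlapping those above, were searched on both strands. TTGCAA was in 5.34% of all windows and TTGCGCAA in 0.164%, and no window of the 32 genes held either. AGGAAGT was in 7.69% of all windows and in 6 macrophage windows and 1 neutrophil window. GGAAGTG was in 8.55% and in 3 macrophage windows. GAGGAAGT was in 2.44%, in 1 macrophage and 1 neutrophil window, and TGATAA was in 7.94%, in 3 macrophage windows and 1 mast cell window. A match is a description of letters and not a binding site.

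Ngp measured 10.47, 10.18, 10.91, 11.09 and 9.87 in control and 11.04, 8.78, 7.93, 10.06 and 9.41 in DKO. DKO replicate 1 lay among the highest control arrays, and DKO replicates 2, 3 and 5 lay below every control array. The change was -1.06 ± 0.50 (SE), a ratio of 0.48, and did not pass (adjusted p = 0.352). Its 95% interval, -2.15 to 0.03, was the widest of all 39 genes.

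Camp and Ltf had the same arrays at the top and at the bottom. Camp measured 7.67, 7.72, 8.33, 8.11 and 7.52 in control and 8.43, 6.85, 6.96, 7.52 and 6.85 in DKO, a change of -0.55 ± 0.29 (SE, adjusted p = 0.416). Ltf measured 7.84, 7.75, 8.33, 8.76 and 7.66 in control and 8.69, 6.98, 6.70, 7.79 and 7.17 in DKO, a change of -0.60 ± 0.35 (SE, adjusted p = 0.463). In both genes control replicates 3 and 4 and DKO replicate 1 were the 3 highest arrays, and DKO replicates 2, 3 and 5 the 3 lowest.

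Mmp8, the neutrophil collagenase, measured 5.03, 5.87, 5.99, 6.41 and 5.74 in control and 6.45, 5.24, 4.82, 5.38 and 5.19 in DKO, mostly under the background guide, a change of -0.39 (adjusted p = 0.579). Mmp9, a gelatinase also made by macrophages, differed by -0.14 (0.691). Among the receptors, Csf3r, the receptor for the growth factor G-CSF, measured 6.60, 6.78, 6.51, 6.72 and 6.59 in control and 6.77, 6.64, 6.58, 6.69 and 6.51 in DKO. Both groups thus spanned the same narrow range, with a 95% interval of -0.15 to 0.15 for the change (adjusted p = 0.994). Cxcr2, the receptor for neutrophil-attracting chemokines, differed by -0.18 (0.629), and Clec4d, a lectin receptor of myeloid cells, by 0.07 (0.818). Both had mean levels under the background guide.

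Of 16 other neutrophil genes measured none passed, and the median change was -0.28. At an unadjusted p of 0.05 by limma there were 5, all on the lower side, where 14.8% of all genes reached it (9.18% higher, 5.66% lower). The 4 genes of the primary granules, which form earliest in the bone marrow, were on the lower side: Mpo, myeloperoxidase, by -0.71, Elane, neutrophil elastase, by -0.55, Ctsg, cathepsin G, by -0.54, and Prtn3, proteinase 3, by -0.31 (adjusted p = 0.310, 0.249, 0.197 and 0.293). Elane measured 8.16, 8.04, 8.54, 8.93 and 7.87 in control and 8.08, 7.31, 7.49, 7.95 and 7.94 in DKO, so that the groups overlapped between 7.87 and 8.08. S100a8, a calcium-binding protein abundant in neutrophil cytosol, was 8.89 to 9.44 in control and 9.69, 7.53, 7.04, 8.95 and 8.39 in DKO (change -0.83, adjusted p = 0.389). S100a9, which with the 4 primary granule genes made up the 5 above, differed by -0.73 (adjusted p = 0.323). Of the 16 genes 13 were on the lower side and 3 on the higher. Those 3 were Lcn2 (0.22), Clec4e (0.11) and Il1b (0.06), with adjusted p-values of 0.768, 0.700 and 0.843.

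**Figure D4:**
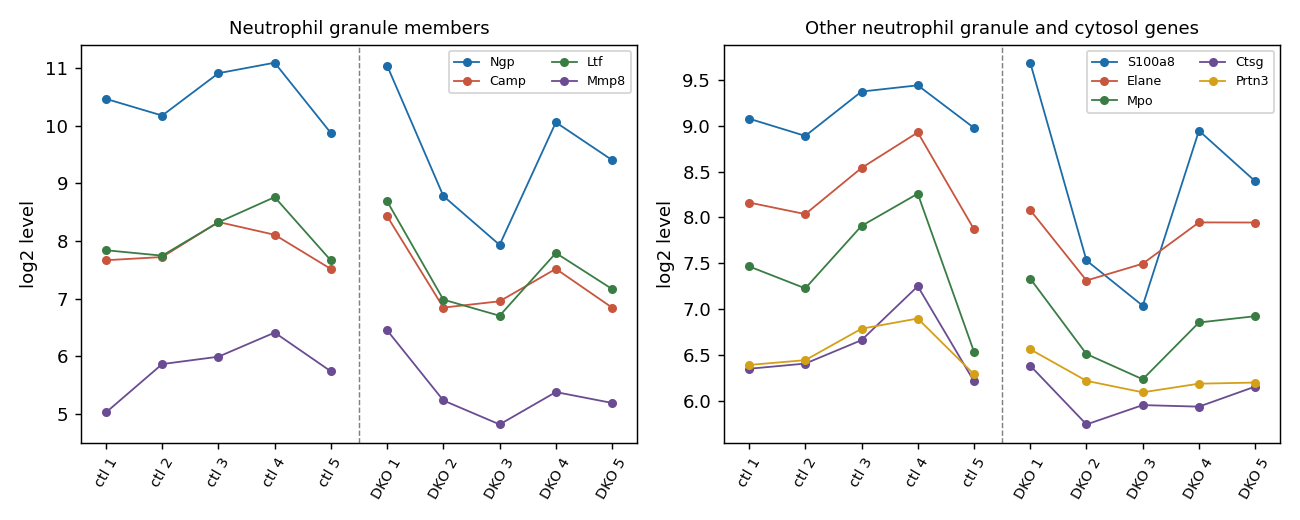
Log2 level in each array of the neutrophil granule genes Ngp, Camp, Ltf and Mmp8 (left) and of S100a8 and the primary granule genes Elane, Mpo, Ctsg and Prtn3 (right). Lines join the values of a gene within a group and the dashed line parts control (ctl) from DKO; Ngp, Camp and Ltf are high in control replicates 3 and 4 and DKO replicate 1 and low in DKO replicates 2, 3 and 5.

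Single arrays moved the changes of the granule genes both ways. Without DKO replicate 1, the array with liver transcripts, the changes were -1.46 for Ngp, -0.83 for Camp, -0.91 for Ltf and -0.65 for Mmp8, of which those of Camp, Ltf and Mmp8 grew by over 1.5 times, and the adjusted p-values were 0.112, 0.0647, 0.134 and 0.220, so none passed. Without DKO replicate 3 the change of Ngp was -0.68 (adjusted p = 0.438) and that of Mmp8 -0.24 (0.709), and without control replicate 4 that of Mmp8 was -0.24 (0.718), each over 1.5 times smaller than with all arrays. The part of liver tissue in the level of that array was not tested. Red cell genes are a sign of blood in the tissue, and of 7 listed only 2 were measured, with no haemoglobin gene. These 2 did not have the same order of arrays as the granule genes. Slc4a1, the red cell anion exchanger, was 11.03, 8.92, 9.97, 11.42 and 9.09 in control and 8.75 to 10.02 in DKO, and Alas2, an enzyme of haem synthesis, was highest in control replicates 1 and 4 (10.25 and 10.48). Slc4a1 differed by -0.42 and Alas2 by -0.07 (adjusted p = 0.706 and 0.931), on the lower side in DKO like the granule genes. Both red cell genes were high in control replicates 1 and 4, of which control replicate 4 was also high in Ngp, Camp and Ltf and control replicate 1 was not, and their part in the neutrophil values was not tested.

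Of the 6 mast cell genes none passed, 3 were on each side, and the median change was 0.01, or -0.03 after subtraction of array medians. Cpa3, the mast cell carboxypeptidase, measured 9.01, 9.21, 8.29, 8.38 and 8.61 in control and 8.90, 8.81, 8.56, 8.95 and 8.95 in DKO, a change of 0.14 (95% interval -0.24 to 0.51, adjusted p = 0.730). The control arrays of Cpa3 spanned both ends of the DKO range. The tryptase gene Tpsb2 measured 7.51, 7.80, 7.37, 7.19 and 7.54 in control and 7.59, 7.29, 7.41, 7.50 and 7.50 in DKO, a change of -0.02 (-0.25 to 0.20, adjusted p = 0.930).

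The chymases Mcpt4 and Cma1 belong to a family of similar genes and may share probes. Mcpt4 measured 6.44, 6.70, 6.30, 6.35 and 6.48 in control and 6.54, 5.995, 6.46, 6.39 and 6.12 in DKO, a change of -0.15 (adjusted p = 0.553). Cma1 measured 6.29, 6.48, 5.94, 5.86 and 6.31 in control and 6.16, 6.08, 6.23, 6.31 and 6.34 in DKO, a change of 0.05 (adjusted p = 0.872). Control replicate 2 was the highest control array for all 4 proteases. Ms4a2, a chain of the IgE receptor and a defining mast cell gene, was 3.91 to 4.08 in all 10 arrays, under the median of olfactory receptor genes (4.37), so it gave no signal to compare (change -0.02, adjusted p = 0.849). Fcer1a, the chain that binds IgE, differed by -0.11 (0.305) and was likewise near that median (4.48 ± 0.05 and 4.37 ± 0.05, SD, n = 5 each).

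Kit, the receptor for stem cell factor, is also made by interstitial cells and blood progenitors. It measured 9.56, 9.43, 9.43, 9.91 and 9.33 in control and 9.91, 10.07, 9.81, 9.99 and 9.94 in DKO. All DKO arrays exceeded all control arrays but control replicate 4. The change was 0.41 ± 0.10 (SE, 95% interval 0.19 to 0.64), a ratio of 1.33, and just missed the threshold (adjusted p = 0.0615). Without control replicate 4 it was 0.51 and passed (adjusted p = 0.00451). The 4 protease genes had a median change of 0.01 over the same arrays. Of the 14 other mast cell and basophil genes measured none passed. By limma 2 of them reached an unadjusted p of 0.05, where 14.8% of all genes did: Fcer1a and Hpgds, a prostaglandin synthase (0.32, adjusted p = 0.311). The tryptase Tpsab1 (-0.14) and Rgs13 (0.16), a brake on G-protein signalling, did not pass either (adjusted p = 0.413 and 0.411).

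Ligands and partner receptors of these genes were measured too. Of 23 measured growth factors and chemoattractants 1 rose and none fell, where 2.08% of all genes rose and 0.366% fell. Their median change was 0.05. Cx3cl1, the membrane-bound ligand of CX3CR1, measured 7.45, 7.58, 7.44, 7.25 and 7.44 in control and 8.08, 7.72, 7.72, 7.79 and 7.68 in DKO. Every DKO array lay above every control array, and Cx3cl1 rose by 0.37 ± 0.08 (SE, adjusted p = 0.0478). The call was close to the threshold: it ended without any 1 of the 10 arrays (adjusted p = 0.0582 to 0.111), after quantile normalization again (0.0937), after subtraction of array medians (0.0970), without moderated variance (0.102) and with the replicate number as a block (0.140).

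Both ligands of CSF1R were on the higher side without passing. Il34 differed by 0.16 (adjusted p = 0.310) and Csf1 by 0.19 (0.512). Il33, an alarm cytokine that acts on mast cells among others, measured 8.09, 7.74, 6.95, 7.67 and 7.95 in control and 8.15, 9.02, 7.60, 8.65 and 8.31 in DKO, a difference of 0.67 ± 0.27 (SE, adjusted p = 0.277). Kitl, the ligand of KIT, differed by 0.02 (0.943), and Ccl4 by -0.14 (0.415).

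Of 29 other macrophage and monocyte genes 1 rose and none fell (median change 0.06), where 2.08% of all genes rose and 0.366% fell. Csf2ra, the ligand-binding chain of the GM-CSF receptor, found on macrophages, neutrophils and their precursors, measured 9.07, 9.26, 9.20, 9.20 and 9.20 in control and 9.58, 9.57, 9.44, 9.57 and 9.49 in DKO. The groups were well apart, and Csf2ra rose by 0.35 ± 0.05 (SE, adjusted p = 0.00577), a ratio of 1.27. Within DKO the SD of Csf2ra was 0.06, against 0.23 for the mean of the 25 macrophage genes. Which cells gave the rise of Csf2ra was not tested. The call ended with the replicate number as a block (adjusted p = 0.0618). Its signalling partner Csf2rb differed by 0.31 ± 0.20 (SE, adjusted p = 0.491), and the inhibitory antibody receptor Fcgr2b (0.33), the lysosomal protease gene Ctsc (0.22) and the costimulatory gene Cd86 (0.18) did not pass (adjusted p = 0.191, 0.180 and 0.407). Spi1, the gene of PU.1, differed by 0.02 (0.963).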

How the data were processed

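Total RNA of 10 pancreas samples, 5 per group, was labelled with biotin and hybridised to 1-colour arrays. The authors deposited 1 log2 intensity per transcript cluster and sample. Per the submitters' processing notes they used Affymetrix Expression Console; no version, normalization or build is given in the labels. Medians over the tested genes were 7.55 to 7.63, and the deposited values entered the test without change. Of 35556 clusters 21789 had 1 gene symbol in the platform annotation, 1621 had several and 12146 had none here. Only the first entered, the brightest cluster standing for each of the 999 genes with more than 1, and symbols were updated through RefSeq (GRCm38.p6) for 21698 clusters. No member had a second cluster.

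The 5 DKO arrays were set against the 5 control arrays with limma 3.58.1 under R 4.3.3. The test was two-sided (lmFit and eBayes, 10.96 total degrees of freedom). The fit was also run on simulated data with noise independent between genes. That run cannot show how the fit fares with the spread between arrays that genes share here. The number of arrays limits the precision. The members and lists were chosen with earlier results of these data known, and no set test or list p-value was computed. Beside the members, 181 genes in 13 lists were looked up, and 159 were measured. Genes with values in every array are the defining markers, the 4 largest changes and the 3 largest SDs of each cell type; C1qb, C1qc, Cx3cr1, Lyz2, Tyrobp and genes of other lists were added after their values were seen. Of each other list the genes past the threshold and the 4 with the smallest p are named. Further names (S100a8, S100a9, Lcn2, Clec4e, Il1b, Clec4f, Csf1, Kitl, Csf2rb, Spi1, Ccl2, Ccl7, Ccl12, Ms4a1, Cd79b, Apoa4, Fabp2) were chosen after their values were seen. The 19 alternatives covered normalization, dim genes, the variance model, cluster choice, each array left out and the replicate number as a block.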

Additional observations from a re-analysis of the deposited data

Results flagged for a closer look

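Each of 84 sets of 5 arrays (39 genes and 3 cell type means, in 2 groups) was examined for an array whose gap to the nearest of the others exceeded 0.71 of the whole range, Dixon's critical value for 5 arrays. Chance flags about 1 in 20 such sets, and 4 were found. Adgre1 was 9.40 in control replicate 2, against 8.33 to 8.58 in the other control arrays. Tyrobp was 8.51 in DKO replicate 3, against 9.05 to 9.20 in the other DKO arrays, and Lyz2 was 10.50 there, against 11.05 to 11.16. Ccr2 was 6.26 in DKO replicate 2, against 5.21 to 5.47. No cell type mean was found by this criterion.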

How the results depend on the processing

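No member passed with all arrays. C1qa passed as 1 lower member after quantile normalization again (adjusted p = 0.0273), after subtraction of array medians (0.0388), without the dimmest 25% (0.0459) or 50% (0.0346) of genes, with trended and robust variance (0.0456) and with array weights (0.0383); Kit passed as 1 higher member without the dimmest 50% (0.0384), with trended and robust variance (0.0476) and with array weights (0.0236). Without single arrays the count was 0 to 1 in each direction, and it was 1 for C1qa without control replicate 1 (0.0473) or DKO replicate 5 (0.0499) and for Kit without control replicate 4 (0.00451). The cause was not tested. Over all 19 alternatives the change of C1qa was -0.52 to -0.41 and that of Kit 0.36 to 0.51. With the replicate number as a block C1qa passed (1 lower member, adjusted p = 0.0440) and 178 genes in all did, against 487; control and DKO arrays of the same number deviated with correlations of -0.27, -0.20, 0.29, -0.22 and 0.21, and none correlated best with its own number, so the numbers were not taken as pairs. Of 159 other listed genes measured 5 passed, where 2.44% of all genes did. That count was 3 without moderated variance, 2 with the replicate block and 3 to 4 without single arrays. Rbpjl lost its call without control replicate 3 or 5 or DKO replicate 4, without moderated variance and with the block (highest adjusted p 0.0689).

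Genes with changes near 0 changed sign, none past the threshold. With array weights Adgre1 became -0.041, Csf3r 0.00011, Cma1 -0.014, Timd4 -0.053 and Alas2 0.022, and Csf3r was 0.021 after quantile normalization again. Without single arrays the ranges that crossed 0 were -0.035 to 0.24 for Adgre1, -0.20 to 0.039 for Clec7a, -0.021 to 0.24 for Fcgr3, -0.11 to 0.093 for Tyrobp, -0.063 to 0.20 for Ccr2, -0.14 to 0.034 for Lyz2, -0.21 to 0.046 for Cybb, -0.034 to 0.034 for Csf3r, -0.0019 to 0.16 for Clec4d, -0.097 to 0.055 for Tpsb2, -0.032 to 0.12 for Cma1, -0.13 to 0.018 for Cd8a, -0.010 to 0.33 for Cd79a, -0.056 to 0.21 for Timd4, -0.016 to 0.13 for Marco and -0.26 to 0.15 for Alas2. Intensities near background, as for Ms4a2 and Ccr2, limit what a change of these genes could show.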

Other observations

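Of the chemokines that attract monocytes, Ccl2, Ccl7 and Ccl12 were highest in the same 3 arrays, which came from both groups. Cx3cl1, given above, was unlike them, with every DKO array above every control array. Ccl2 was 8.13 in control replicate 2 and 8.22 and 8.05 in DKO replicates 2 and 4, and 7.02 to 7.47 in the other 7 arrays (change 0.22, adjusted p = 0.740). These 3 arrays also held the 3 highest means of the macrophage genes (8.57 to 8.63). Ccl7, a relative of Ccl2, was 8.35, 8.72 and 8.26 in the same 3 arrays, and Ccl12 was 5.74, 5.72 and 6.22. The arrays were singled out after their values were seen, and the relation was not tested.

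Lymphocyte genes were high in a partly different set of arrays, which also held DKO replicate 2. The mean of 14 measured T and B cell genes was 6.57 and 6.52 in DKO replicates 1 and 2, 6.42 in control replicate 4 and 5.92 to 6.15 in the other 7, and none of the 14 passed. The smallest p-values belonged to Cd4 (change 0.25), Cd3g (0.21), Cd8a (-0.06) and Cd79a (0.15), with adjusted p-values of 0.425 to 0.805. The B cell gene Ms4a1 was highest in DKO replicate 2 (7.41), and Cd79b was 8.50 and 8.43 in DKO replicates 1 and 2 and 6.64 to 8.09 in the other arrays. Of 10 genes of the small intestine epithelium none passed, and the 4 with the smallest p, Lct, Mmp7, Ang4 and Alpi, differed by -0.10, 0.16, -0.20 and -0.09. The mean of all 10 was 6.22 in DKO replicate 1 and 5.71 to 5.89 in the other arrays. In that array, which also held the liver transcripts, Apoa4 was 9.38 against 6.51 to 7.05 elsewhere, and Fabp2 was 6.27 against 4.27 to 4.42 (changes 0.39 and 0.37, adjusted p = 0.716 and 0.641).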
